A study of Mus musculus with 8 samples.

Results

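The WNT and beta-catenin pathway was followed through 10 of its genes (10 of the 14608 genes in the deposited table) in undifferentiated spermatogonia (A_undiff) of the mouse. They were taken by gene symbol: the co-receptors Lrp5 and Lrp6, the R-spondin receptor Lgr4, the destruction complex scaffolds Apc, Axin1 and Axin2, beta-catenin itself (Ctnnb1), and the TCF/LEF factors Tcf7l1, Tcf7l2 and Lef1. All 10 were in the table and all passed the filter on low counts. Regenerative A_undiff came from testes 10 days after a single 10 mg/kg dose of busulfan (BU, 4 libraries), an alkylating agent that depletes spermatogonia. Homoeostatic A_undiff came from untreated testes (CTRL, 4 libraries). All mice were adult wild-type C57BL/6J animals aged 6 to 8 weeks with no transgene named in the labels, and all cells were sorted as positive for E-cadherin and CD49f (α6-integrin) and negative for c-KIT. The comparison asked how A_undiff that survive germ cell loss and start regeneration differ from A_undiff of the undisturbed testis.

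In the canonical pathway, a secreted WNT protein binds a Frizzled receptor together with LRP5 or LRP6. Without that signal, a complex built on APC and the AXIN proteins marks beta-catenin for degradation. With it, beta-catenin accumulates, enters the nucleus and binds TCF/LEF factors on DNA, where it replaces Groucho/TLE co-repressors. R-spondins, acting through LGR receptors, raise the sensitivity of a cell to WNT. In mouse spermatogonia the pathway has been linked to progenitor proliferation and to the step from A_undiff towards differentiation. Beta-catenin also has a structural role at cadherin junctions, and E-cadherin is one of the proteins used for this sort.

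Total counts were 17181963 to 24243985 in BU libraries and 18152779 to 23875108 in CTRL libraries, with mitochondrial genes taking 42.04 to 45.6% of counts in BU and 39.8 to 43.5% in CTRL. All 6 markers listed for undifferentiated spermatogonia were present, with a summed level of 649 to 769 CPM (counts scaled to library size with TMM factors) in BU and 920 to 982 CPM in CTRL, and 2 of the 6, Zbtb16 and Lin28a, were lower in BU. The 4 markers listed for differentiating spermatogonia (Kit, Stra8, Dmrtb1 and Sohlh1) summed to 140 to 189 CPM in BU and 65.5 to 87.8 CPM in CTRL (3 higher and 1 lower in BU). Higher and lower follow the call rule given below. The paper also identifies transitional cells within A_undiff by Stra8, so Stra8 is not particular to differentiating cells. Whether the BU pool held more differentiating cells was not tested. Immune cell markers summed to 22.2 to 33.5 CPM in BU and 8.32 to 15.4 CPM in CTRL. All 4 that were in the table, of 7 listed, were higher in BU (Ptprc, Cd74, H2-Aa and Mrc1). Endothelial markers summed to 23.6 to 31.1 CPM in BU and 16.3 to 18.4 CPM in CTRL (4 of 5 in the table, 1 higher). Peritubular and stromal markers summed to 34 to 37 CPM in BU and 54 to 59 CPM in CTRL (3 of 5, 1 higher and 1 lower). Sertoli cell markers summed to 19.5 to 28.9 CPM in BU and 17.3 to 24.5 CPM in CTRL (5 of 7, 2 higher). Spermatocyte markers (1 of 5 lower), spermatid markers (5 of 5 in the table) and the Leydig cell marker Star overlapped between the groups in summed level. The Leydig cell markers Insl3 and Cyp17a1, the Sertoli cell marker Amh and the other listed immune cell markers (Csf1r, Lyz2 and Adgre1) were not among the rows of the table. The part of these shifts in the changes of the WNT pathway genes was not tested. The paper reports from single cells that its progenitor cluster was depleted after BU and its proliferative stem cell clusters were more prominent. In such a sorted pool, fewer cells of one kind and less RNA per cell cannot be told apart.

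Regenerative A_undiff carried more Lrp5 transcript and less Tcf7l2 and Lef1 transcript than homoeostatic A_undiff, while Ctnnb1 had the same mean level in both to within its spread. A gene was called where limma-voom, adjusted over all genes by the Benjamini-Hochberg method, gave a p under 0.05 together with a fold change over 1.5. By this rule 3 of the 10 members were called, against 13.3% of all 14608 genes. Of these, 1 was higher, against 6.8% of all genes, and 2 were lower, against 6.54% of all genes. With 10 genes, each call moves the share of members by 10 percentage points, and nothing particular to the list is read from these counts. The median log2 fold change was -0.19 over the 10 members and -0.01 over all genes, and 4 members had positive and 6 negative values. By the adjusted p alone 6 of 10 members passed, against 32.1% of all genes, and for 6 of 10 members the BU and CTRL libraries did not overlap, against 30.3% of all genes.

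**Figure D1:**
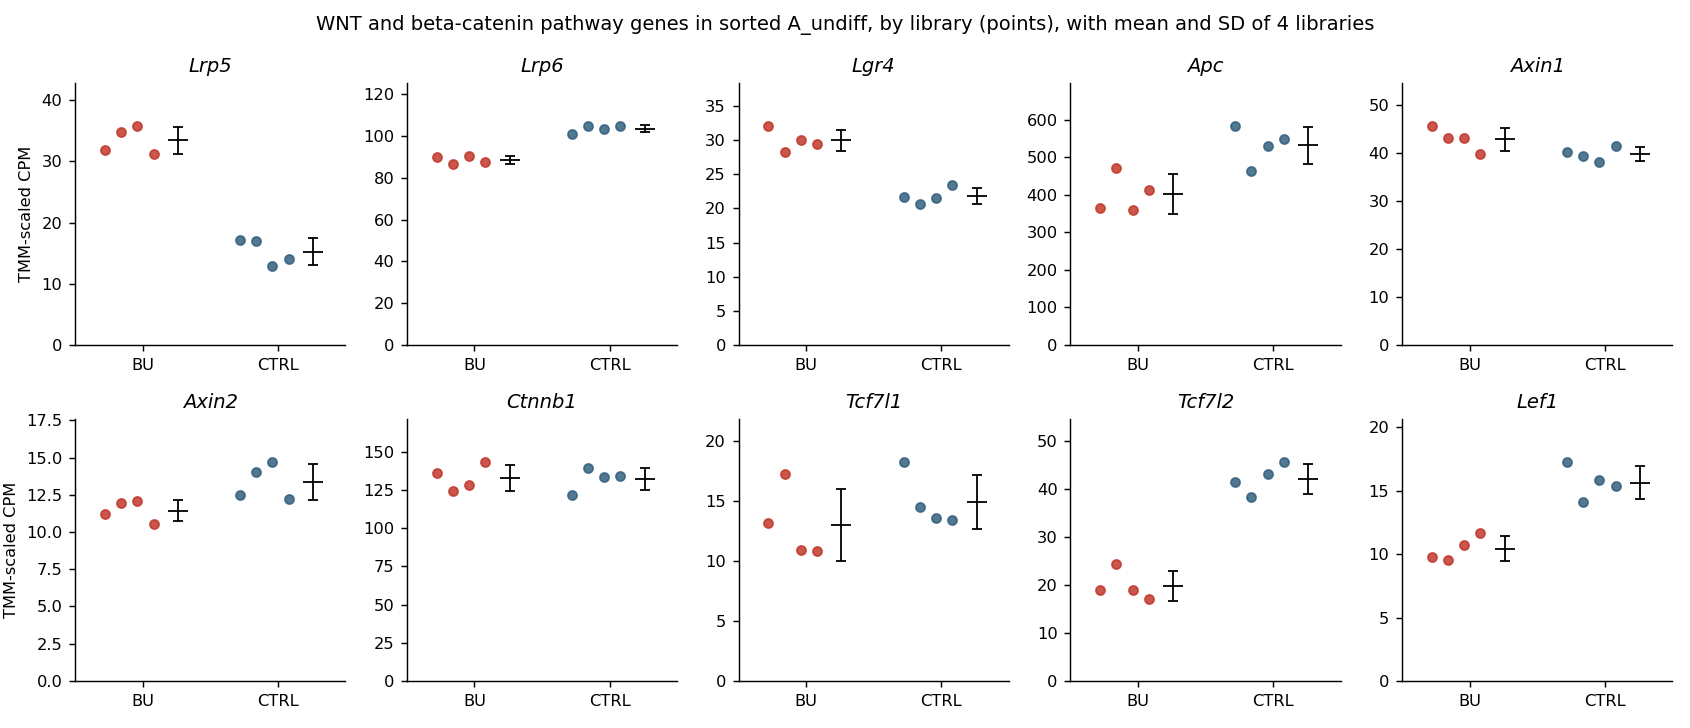
TMM-scaled CPM of the 10 genes in each library (points, BU in red on the left, CTRL in blue on the right), with mean and SD of the 4 libraries beside them. The vertical axes start at 0 and differ between panels. Lrp5 and Lgr4 sat higher in all BU libraries than in any CTRL library, Tcf7l2, Lef1, Lrp6 and Axin2 sat lower in all of them, and the groups overlapped for Apc, Axin1, Ctnnb1 and Tcf7l1.

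The 2 members called lower encode TCF/LEF factors, so the 250 bases before a transcription start of each are shown, from RefSeq windows of GRCm38.p6. Lef1 has 4 such windows and Tcf7l2 has 2, and the most upstream window of each gene was taken. The Tcf7l2 stretch is chr19:55741560-55741809 and the Lef1 stretch chr3:131110047-131110296, both on the plus strand. Capitals mark the 5-base core CTTTG of the TCF/LEF motif, or its reverse complement CAAAG.

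Tcf7l2: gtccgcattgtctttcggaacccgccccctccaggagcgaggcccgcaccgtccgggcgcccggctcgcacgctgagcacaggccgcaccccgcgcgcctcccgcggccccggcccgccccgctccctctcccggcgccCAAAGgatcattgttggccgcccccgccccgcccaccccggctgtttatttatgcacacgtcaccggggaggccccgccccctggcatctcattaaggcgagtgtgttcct

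Lef1: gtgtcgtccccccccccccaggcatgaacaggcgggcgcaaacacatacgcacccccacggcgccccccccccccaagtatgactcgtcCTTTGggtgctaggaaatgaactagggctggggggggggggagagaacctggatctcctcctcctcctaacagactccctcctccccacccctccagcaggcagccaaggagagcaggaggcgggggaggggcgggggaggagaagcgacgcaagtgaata

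Each of these stretches held 1 core match, as CAAAG in Tcf7l2 and as CTTTG in Lef1, and 48.6% of all 32851 such windows held at least 1. The other Tcf7l2 window also held 1 match, and the other Lef1 windows held 2, 1 and 3, the first of these overlapping the stretch shown. The longer motif CTTTGAT, searched on both strands, was in neither, and it was in 3.21% of all windows. Windows were found for 6 members (Lgr4, Lef1, Tcf7l1, Ctnnb1, Axin2 and Tcf7l2, 11 windows in all, some of them overlapping), of which 7 held the 5-base core and 0 the 7-base motif. The 5-base core lies within the 7-base motif, so the searches are nested. A match is a run of letters and not a site of binding, and the counts per gene do not separate transcripts from different starts.

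Among the receptors, Lrp5 changed most. LRP5 is a single-pass co-receptor that is phosphorylated when WNT brings it together with Frizzled. Its gene lies on chromosome 19 from 3584828 to 3686564 on the minus strand in the GRCm38 coordinates of the table, with no exonic overlap with another gene. Lrp5 had 31.8, 34.8, 35.7 and 31.3 CPM in BU 2, 3, 4 and 5, against 17.2, 16.96, 12.9 and 14.0 CPM in CTRL 1, 2, 3 and 4. The groups were apart by 14.1 CPM, more than the whole range within either group. Lrp5 was 2.23-fold higher in BU (log2 fold change 1.15, SE 0.10, 95% interval 0.93 to 1.38, limma-voom adjusted p = 3.32e-07). These values rest on 301 to 873 raw counts per library.

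The paralogue Lrp6, the co-receptor with the wider requirement in mouse development, had 89.8, 86.6, 90.3 and 87.5 CPM in the BU libraries against 101.1, 104.6, 103.4 and 104.6 CPM in the CTRL libraries. The spread within each group was narrow (SD 1.77 CPM in BU and 1.65 CPM in CTRL), and the groups did not overlap. The difference passed the adjusted p but not the 1.5-fold threshold (log2 fold change -0.23, SE 0.06, limma-voom adjusted p = 0.00484). Lgr4, the R-spondin receptor, had 32.0, 28.3, 30.0 and 29.5 CPM in BU against 21.6, 20.6, 21.5 and 23.4 CPM in CTRL. Each BU library was above each CTRL library for Lgr4, at 1.37-fold, which is under the fold threshold (log2 fold change 0.45, SE 0.08, 95% interval 0.27 to 0.63, limma-voom adjusted p = 5.61e-04).

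The 2 co-receptor genes thus differed in the sign of their difference, and their balance could be read within each library, where it does not depend on scaling. The ratio of Lrp6 to Lrp5 counts was 2.82, 2.49, 2.53 and 2.80 in the BU libraries against 5.88, 6.17, 8.02 and 7.48 in the CTRL libraries. All BU ratios lay below all CTRL ratios. The difference in mean log2 ratio was -1.36 (two-sided exact permutation p = 0.0286, the smallest that 70 assignments can give, 0.0381 after adjustment over the 4 ratios tested). Each gene alone already separated the groups, in opposite directions. The separation of the ratio and its p follow from that and add no further support. Corrected for gene length, Lrp5 was at 3.43 ± 0.225 CPM per kb in BU and 1.57 ± 0.221 CPM per kb in CTRL, and Lrp6 at 6.48 ± 0.129 CPM per kb in BU and 7.57 ± 0.121 CPM per kb in CTRL (SD, n = 4 each), so Lrp6 remained the more abundant of the pair in both groups.

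None of the destruction complex scaffolds was called. Apc, the largest scaffold of the complex and a tumour suppressor of the intestine, was the most abundant member by CPM, with 364.1, 470.9, 358.3 and 413.5 CPM in BU against 582.0, 463.5, 530.8 and 548.9 CPM in CTRL. BU 3 lay above CTRL 2, so the groups overlapped through these libraries. Apc was 1.32-fold lower in BU, with an adjusted p under the threshold and a fold under it (log2 fold change -0.40, SE 0.08, 95% interval -0.57 to -0.24, limma-voom adjusted p = 7.81e-04).

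Axin1, the limiting scaffold in many cells, had 45.5, 43.04, 43.01 and 39.7 CPM in BU against 40.1, 39.2, 38.2 and 41.5 CPM in CTRL. The groups overlapped, and the interval of the log2 difference ran from -0.05 to 0.26 (log2 fold change 0.11, SE 0.07, limma-voom adjusted p = 0.283). Axin2, both a scaffold and a widely used transcriptional target of beta-catenin and TCF, had 11.2, 12.0, 12.1 and 10.5 CPM in BU against 12.5, 14.0, 14.7 and 12.2 CPM in CTRL. Its 4 BU values lay just below its 4 CTRL values, with a gap of 0.181 CPM. The difference did not pass the test (log2 fold change -0.21, SE 0.11, 95% interval -0.45 to 0.03, limma-voom adjusted p = 0.174).

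Set against its paralogue within a library, the ratio of Axin2 to Axin1 counts was 0.247, 0.278, 0.281 and 0.265 in BU and 0.310, 0.358, 0.385 and 0.295 in CTRL. The BU ratios were all lower, by 0.33 in mean log2 (two-sided exact permutation p = 0.0286, 0.0381 adjusted over the 4 ratios). Leaving out any 1 BU library gave a difference of -0.35 to -0.29 and an exact permutation p of 0.0571. The p of the full comparison was the smallest that 4 against 4 libraries can give. Axin2 alone already separated the groups, so the separation of the ratio and its p add no further support. Neither gene passed limma-voom. That test was adjusted over all genes and the permutation over the 4 ratios, so the outcomes of these tests cannot be set against each other.

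**Figure D2:**
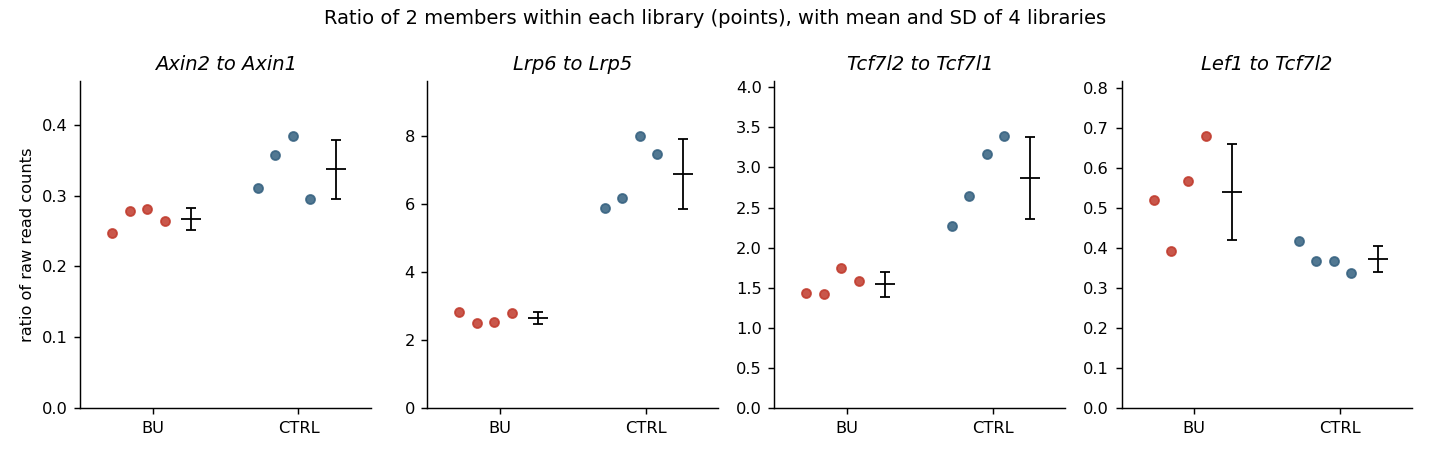
Ratio of raw counts of 2 members within each library (points, BU in red on the left, CTRL in blue on the right), with mean and SD of the 4 libraries; each vertical axis starts at 0. The Lrp6 to Lrp5, Axin2 to Axin1 and Tcf7l2 to Tcf7l1 ratios were lower in every BU library than in any CTRL library, and the Lef1 to Tcf7l2 ratio overlapped between the groups through BU 3 and CTRL 1.

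Ctnnb1, the gene of beta-catenin, had 135.9, 124.2, 128.3 and 143.1 CPM in BU against 121.8, 139.4, 133.6 and 134.0 CPM in CTRL. The groups overlapped, with means of 132.9 ± 8.38 CPM in BU and 132.2 ± 7.41 CPM in CTRL (SD, n = 4 each). The log2 fold change was 0.00 (SE 0.06, limma-voom adjusted p = 0.982), and its 95% interval of -0.13 to 0.13 leaves out a change as large as 1.5-fold. In this gene 14.6% of the exonic bases are shared with Ulk4 on the opposite strand, and with no stated strand setting reads of the pair cannot be told apart there. Ulk4 itself was at 11.8 ± 1.55 CPM in BU and 13.5 ± 1.23 CPM in CTRL and did not pass the test. Transcript counts do not report beta-catenin protein, which the pathway controls by degradation.

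The TCF/LEF factors, which bring beta-catenin to DNA, held both members that were called lower. Tcf7l2, which encodes TCF4, the main partner of beta-catenin in the intestinal epithelium, had 18.8, 24.3, 18.9 and 17.1 CPM in BU against 41.4, 38.3, 43.1 and 45.5 CPM in CTRL. The highest BU library, BU 3, was still 13.9 CPM below the lowest CTRL library. Tcf7l2 was 2.11-fold lower in BU (log2 fold change -1.08, SE 0.10, 95% interval -1.30 to -0.86, limma-voom adjusted p = 6.6e-07). The gene spans 55741810 to 55933654 on chromosome 19, on the plus strand and without exonic overlap.

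Lef1, first known from lymphocytes, had 9.79, 9.53, 10.7 and 11.7 CPM in BU against 17.3, 14.1, 15.8 and 15.4 CPM in CTRL. The groups did not overlap. At 1.51-fold lower in BU, Lef1 stood on the fold threshold itself (log2 fold change -0.60, SE 0.12, 95% interval -0.84 to -0.36, limma-voom adjusted p = 6.99e-04). It was under that threshold with DESeq2 (-0.58), with upper quartile scaling (-0.58), and with CTRL 1 (-0.55), BU 2 (-0.58) or BU 3 (-0.55) left out, always with an adjusted p under 0.05. Of its exonic bases, 13.7% are shared with an antisense gene that has no row in the table.

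Tcf7l1, a factor that acts mostly as a repressor, had 13.2, 17.2, 10.9 and 10.8 CPM in BU against 18.2, 14.5, 13.6 and 13.4 CPM in CTRL. The groups overlapped, with BU 3 above 3 of the CTRL libraries. The difference did not pass the test, and its interval was the widest of the 10 (log2 fold change -0.18, SE 0.15, 95% interval -0.49 to 0.14, limma-voom adjusted p = 0.403).

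Within libraries the ratio of Tcf7l2 to Tcf7l1 counts was 1.43, 1.42, 1.74 and 1.58 in BU against 2.27, 2.64, 3.17 and 3.40 in CTRL. The groups did not overlap, and the mean log2 ratio differed by -0.88 (two-sided exact permutation p = 0.0286, 0.0381 adjusted over the 4 ratios). Tcf7l2 alone already separated the groups, so the separation of this ratio and its p add no further support. The ratio of Lef1 to Tcf7l2 counts was 0.520, 0.392, 0.567 and 0.681 in BU against 0.417, 0.368, 0.368 and 0.338 in CTRL. BU 3 fell within the CTRL range, and the difference of 0.51 in mean log2 missed the threshold (two-sided exact permutation p = 0.0571, also 0.0571 adjusted). Without BU 3, the library that overlapped, it was 0.66 (exact permutation p = 0.0286, the smallest possible with that library left out). With any other single library left out, the exact permutation p was 0.0571 to 0.0857.

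Another member of this family, Tcf7 (encoding TCF1), is not among the 10 genes but belongs to the same balance. Per kb of gene length Tcf7 was the most abundant of the 4, at 47.0 ± 3.29 CPM per kb in BU and 50.2 ± 2.71 CPM per kb in CTRL (SD, n = 4 each), and it did not pass the test (log2 fold change -0.10, SE 0.06, limma-voom adjusted p = 0.257). Of the summed TCF/LEF level per kb, Tcf7 made up 84.8 to 89.0% in BU libraries and 82.1 to 84.4% in CTRL libraries. Tcf7l2 made up 3.56 to 5.12% in BU and 7.05 to 8.72% in CTRL, and Lef1 1.97 to 2.50% in BU and 2.58 to 3.16% in CTRL. The Tcf7l1 share overlapped, at 5.0 to 8.05% in BU and 5.72 to 7.28% in CTRL. Thus by level per kb Tcf7l2 and Lef1, the called factors, were minor parts of the TCF/LEF transcript pool in both groups. These shares rest on the deposited gene lengths (2625 bp for Tcf7, 8739 bp for Tcf7l2 and 8788 bp for Lef1), not on lengths of expressed transcripts. Before division by length, mean CPM in BU was 123.3 for Tcf7, 19.8 for Tcf7l2 and 10.4 for Lef1. In CTRL these means were 131.9, 42.1 and 15.6 CPM. The summed level was 53.7 ± 3.39 CPM per kb in BU and 60.6 ± 2.93 CPM per kb in CTRL, with the highest BU library at 56.6 and the lowest CTRL library at 57.0 CPM per kb.

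**Figure D3:**
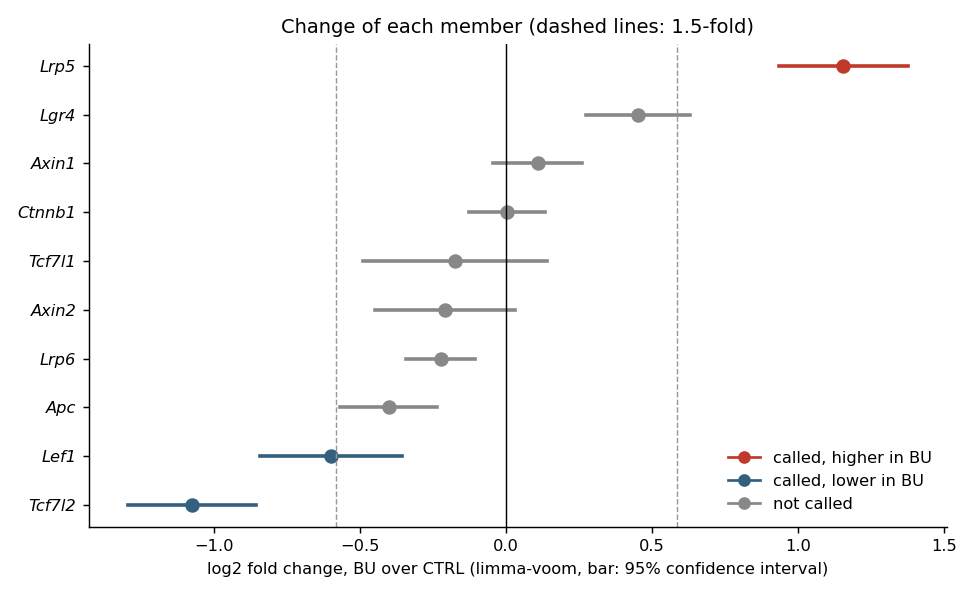
Log2 fold change of each member, BU over CTRL, with its 95% confidence interval (bar), from the member with the most positive value at the top to the most negative at the bottom; dashed lines mark 1.5-fold. Lrp5 at 1.15 and Tcf7l2 at -1.08 lie outside the dashed lines with their whole intervals, Lef1 at -0.60 lies on the line, and the intervals of Axin1, Ctnnb1, Tcf7l1 and Axin2 span 0.

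Ordered by level per kb, Ctnnb1 and Apc led in both groups. In BU they were at 25.6 ± 1.61 and 25.5 ± 3.32 CPM per kb and overlapped across libraries, while in CTRL Apc (33.7 ± 3.17) stood above Ctnnb1 (25.5 ± 1.43) without overlap. Axin1 (11.2 ± 0.617 in BU and 10.4 ± 0.368 in CTRL) and then Lrp6 followed in both groups, each apart from its neighbours. Below Lrp6 the order differed. In BU it ran Lgr4 (5.09 ± 0.262), Lrp5 (3.43 ± 0.225), Tcf7l1 (3.32 ± 0.763), Tcf7l2 (2.27 ± 0.358), Axin2 (2.08 ± 0.132) and Lef1 (1.19 ± 0.110), with overlapping libraries between Lrp5 and Tcf7l1, Tcf7l1 and Tcf7l2, and Tcf7l2 and Axin2. In CTRL it ran Tcf7l2 (4.81 ± 0.349), Tcf7l1 (3.80 ± 0.572), Lgr4 (3.70 ± 0.20), Axin2 (2.43 ± 0.217), Lef1 (1.78 ± 0.149) and Lrp5 (1.57 ± 0.221), with overlaps between Tcf7l2 and Tcf7l1, Tcf7l1 and Lgr4, and Lef1 and Lrp5 (all CPM per kb, SD, n = 4). Lrp5 was thus number 6 of the 10 genes in BU and number 10 in CTRL, and Tcf7l2 was number 8 in BU and number 5 in CTRL.

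The rest of the pathway was read from 12 role lists, in which 84 genes other than the 10 members were in the table. Of these 84 genes, 7 were higher and 9 were lower in BU, 16 in all (19.0%, beside 13.3% of all genes), and their median log2 fold change was -0.02. By the adjusted p alone, 35 of the 84 passed (41.7%, beside 32.1% of all genes).

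Few WNT ligands were present at the level the table requires. Of 19 ligand genes, 4 were in the table (Wnt2b, Wnt3, Wnt5b and Wnt9a), and 0 were called by limma-voom, edgeR or DESeq2 or had an unadjusted p under 0.05. The ligand with the smallest adjusted p was Wnt5b, at 2.05 ± 0.463 CPM in BU and 3.04 ± 0.705 CPM in CTRL (SD, n = 4 each; limma-voom adjusted p = 0.133). Of the ligand processing genes, 2 of 3 were in the table and neither was called, with the smallest adjusted p for Porcn, the acyltransferase that adds the lipid of WNT proteins (0.145 in limma-voom, 3.75 ± 0.583 CPM in BU and 4.90 ± 1.04 CPM in CTRL).

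The R-spondin genes held 1 call, which was lower in BU. Rspo4, 1 of 3 R-spondin genes in the table, had 17.4, 19.7, 15.8 and 16.8 CPM in BU against 29.6, 32.4, 33.4 and 32.4 CPM in CTRL. All BU values were lower, at 1.83-fold (log2 fold change -0.87, SE 0.09, limma-voom adjusted p = 2.45e-06). Neither of the R-spondin receptor and receptor ubiquitin ligase genes other than Lgr4 that were in the table was called, and the smaller adjusted p was that of Lgr6 (0.780 in limma-voom).

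Of 9 genes for Frizzled and other WNT receptors, 2 were higher and 2 lower. Fzd7 (log2 fold change 0.60, SE 0.14, limma-voom adjusted p = 0.00395) and Fzd10 (0.67, SE 0.18, adjusted p = 0.00922) were higher. Fzd7 was at 10.5 ± 1.36 CPM in BU and 6.95 ± 0.917 CPM in CTRL, and Fzd10 at 7.03 ± 1.59 CPM in BU and 4.38 ± 0.255 CPM in CTRL (SD, n = 4 each). Fzd2 was lower (-0.99, SE 0.20, limma-voom adjusted p = 0.00112), at 4.43, 2.35, 4.43 and 4.07 CPM in BU against 7.70, 6.49, 7.58 and 6.70 CPM in CTRL. Fzd6, a Frizzled best known for hair and tissue polarity in the mouse, was also lower (-0.62, SE 0.21, limma-voom adjusted p = 0.0297). The call of Fzd6 was lost when CTRL 1, CTRL 3, CTRL 4 or BU 5 was left out, that of Fzd7 without CTRL 4 or BU 4, and that of Fzd10 without BU 3.

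Among secreted and membrane inhibitors, 6 of 14 were in the table, with 1 higher and 2 lower. Sfrp1, which encodes a secreted Frizzled-related protein that binds WNT, had 19.3, 15.5, 18.0 and 19.8 CPM in BU against 36.0, 34.7, 35.2 and 42.7 CPM in CTRL. It was 2.07-fold lower with no overlap (log2 fold change -1.05, SE 0.10, limma-voom adjusted p = 8.09e-07). Its paralogue Sfrp2 went the other way, at 33.9 ± 1.49 CPM in BU and 23.3 ± 2.78 CPM in CTRL, with no overlap. Sfrp2 passed the adjusted p but not the fold threshold (0.55, SE 0.09, limma-voom adjusted p = 2.20e-04). The same held for Kremen1, with a negative value (-0.34, SE 0.10, adjusted p = 0.0168). Apcdd1, a membrane-bound inhibitor that is also a target gene of the pathway, was lower as well (-0.92, SE 0.21, limma-voom adjusted p = 0.0029), at 3.17 ± 0.817 CPM in BU and 6.19 ± 1.07 CPM in CTRL. Wif1, another secreted WNT-binding inhibitor, was higher (0.95, SE 0.30, limma-voom adjusted p = 0.0221), but BU and CTRL libraries overlapped, at 3.15 to 4.80 CPM in BU and 0.985 to 3.61 CPM in CTRL, and the call was lost without CTRL 1, CTRL 3 or BU 4.

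Inside the cell, each list held 1 or 2 calls. Of 9 genes for Dishevelled and its regulators, 1 was lower: Cxxc4, whose protein binds Dishevelled (-0.68, SE 0.21, limma-voom adjusted p = 0.0197, lost without CTRL 3, BU 3 or BU 4). Of 16 further genes of the destruction complex and beta-catenin turnover, 1 was lower: Amer1, a membrane-associated partner of APC (-0.60, SE 0.15, limma-voom adjusted p = 0.0055), with the call lost in edgeR's quasi-likelihood test, DESeq2, or without CTRL 3, CTRL 4 or BU 3. Of 16 nuclear partners of beta-catenin, 1 was lower and 1 higher. Both are of the Groucho family: Tle1, a full-length co-repressor, had 31.5, 38.01, 37.4 and 32.9 CPM in BU against 59.5, 48.5, 56.1 and 53.9 CPM in CTRL (-0.63, SE 0.09, limma-voom adjusted p = 2.44e-05). Aes, a short member of that family, had 17.8, 17.2, 20.4 and 16.0 CPM in BU against 11.2, 14.4, 10.9 and 9.94 CPM in CTRL (0.65, SE 0.12, limma-voom adjusted p = 6.5e-04). Without CTRL 4, or without BU 4, Aes was no longer called.

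Of 6 cadherin and catenin genes, 1 was called: Cdh2, the gene of N-cadherin, with 26.8 ± 1.17 CPM in BU and 17.8 ± 0.978 CPM in CTRL (0.59, SE 0.09, limma-voom adjusted p = 6.12e-05). Cdh2 stood close to the fold threshold, and the call was lost without CTRL 3, BU 4 or BU 5. Of 16 listed target genes, 7 were in the table, with 1 higher and 1 lower (Apcdd1, above). The higher one was Ccnd1, the gene of cyclin D1, which many other pathways also control. It had 61.9, 69.1, 73.1 and 64.5 CPM in BU against 31.9, 31.3, 33.4 and 31.2 CPM in CTRL, the smallest adjusted p of all listed pathway genes (log2 fold change 1.07, SE 0.08, limma-voom adjusted p = 1.68e-08). In Ccnd1, 23.4% of the exonic bases are shared with a gene on the opposite strand. By the adjusted p alone, which 32.1% of all genes passed, 4 of the 7 passed. Besides Ccnd1 and Apcdd1 these were Ascl2 (0.57, SE 0.11, limma-voom adjusted p = 8.15e-04) and Tbx3 (-0.35, SE 0.11, adjusted p = 0.0196). Both were under the fold threshold. So the listed target genes went both ways, with a median log2 fold change of 0.03. Axin2, a member outside this list, had a negative value that did not pass the test.

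Planar cell polarity is a WNT branch that does not use beta-catenin. Of its 8 genes in the table, Daam1, a formin that binds Dishevelled, was lower, at 29.8, 29.7, 26.1 and 26.7 CPM in BU against 45.3, 42.4, 41.9 and 45.6 CPM in CTRL (-0.64, SE 0.08, limma-voom adjusted p = 1.02e-05). Prickle2 was higher (1.03, SE 0.36, limma-voom adjusted p = 0.0365), but its libraries overlapped, at 2.37 to 6.45 CPM in BU and 0.903 to 2.65 CPM in CTRL, and the call was lost without CTRL 1, CTRL 3, BU 2 or BU 4.

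**Figure D4:**
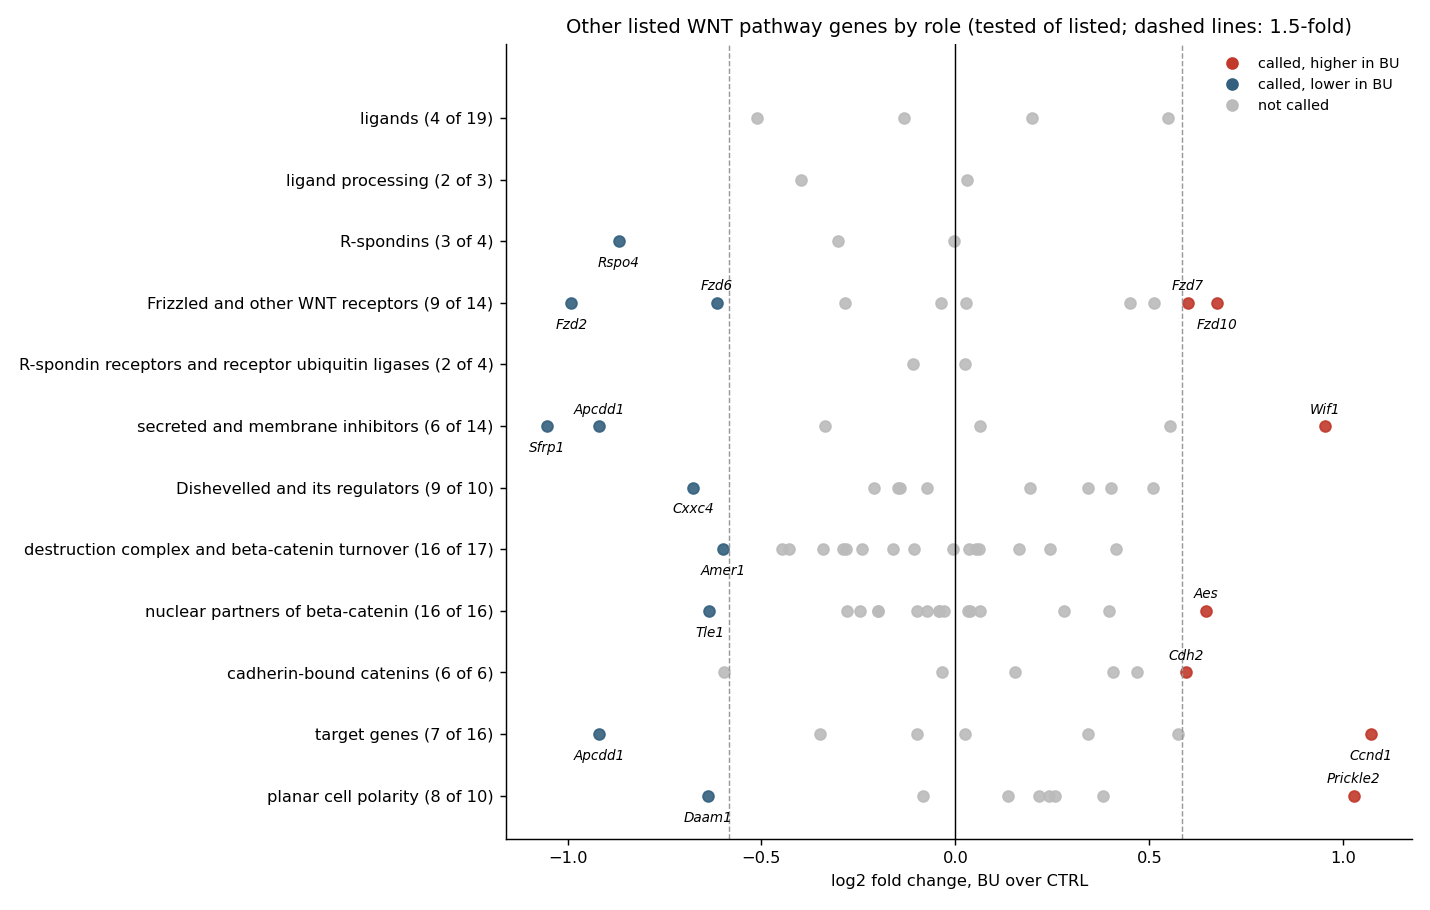
Log2 fold change, BU over CTRL, of the other listed WNT pathway genes in the table (points), by role, with the number tested of the number listed beside each role; dashed lines mark 1.5-fold, and a gene of 2 lists is drawn in both. The called genes, which are named, lie on both sides, 7 higher and 9 lower in BU, with Ccnd1 (1.07) and Sfrp1 (-1.05) farthest out, and 1 uncoloured point past the line (Ctnna2, -0.60) did not pass the adjusted p.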

How the data were processed

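The authors sorted the cells, amplified RNA as cDNA by the SPIA method, sequenced 100 bp paired-end reads and ran the RNAsik pipeline. Per the submitters' notes, featureCounts, edgeR and limma were used with build GRCm38. The sources used here give no aligner, annotation release or strand setting. The deposited values used were raw read counts per gene, not normalised, and the deposited gene lengths in bp were used for levels per kb. The 8 per-sample CPM columns and the authors' own comparison columns (group means, average expression, p-values and FDR) were not used. All 14608 genes have a CPM of 1 or more in 4 or more libraries, and rarer genes were not analysed here. BU columns are numbered 2 to 5 and could be tied to the group only. The study gives 4 mice per group, but the labels do not tie a library to a mouse. The p-values therefore reflect only the spread between these libraries. SPIA amplification can change the relative yield of transcripts.

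BU was compared with CTRL on the whole table by limma-voom (limma 3.58.1, edgeR 4.0.16 for TMM factors and filterByExpr, R 4.3.3), which removed 0 genes, with group as the sole term. All adjusted p-values are Benjamini-Hochberg values over 14608 genes. Ratios were compared by two-sided exact permutation tests over 70 assignments. Named genes were the 10 members, each listed pathway gene that was called, and, in a list with none called, the gene with the smallest adjusted p. Tcf7, Ctnna2, Ulk4, Ascl2, Tbx3, Sfrp2 and Kremen1 were added after their values were seen. Members and lists were chosen with earlier results of these data known. Alternatives were DESeq2 1.42.0, edgeR's quasi-likelihood test, the treat test of limma, other scalings, filters, weights and thresholds, and libraries left out. Code was tested on simulated data. Exonic overlaps came from GENCODE M21 and promoter windows from RefSeq (GRCm38.p6). Python 3.11.15, pandas 2.3.3, numpy 2.4.6 and matplotlib 3.10.9 were used.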

Additional observations from a re-analysis of the deposited data

Results flagged for a closer look

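Over the 10 members and the 16 called pathway genes, 52 groups of 4 libraries were examined for a library far from the others, and 1 stood out: Sfrp1 in CTRL 4, at 42.7 CPM beside 34.7 to 36.0 CPM in the other CTRL libraries. Chance gives about 1 such group in 20. Sfrp1 was lower in BU with CTRL 4 left out as with the other libraries left out in turn, with 8 of 8 such fits calling it.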

How the results depend on the processing

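Lrp5 and Tcf7l2 were called under every alternative run (log2 fold changes 1.07 to 1.22 and -1.20 to -1.02). Lef1, at the fold threshold, ranged from -0.65 to -0.55 and was not called with DESeq2, upper quartile factors, sample quality weights, treat, a fold over 2, or without CTRL 1, BU 2 or BU 3. Ctnnb1 changed sign within its error: -0.0199 with library totals only, -0.000628 without BU 3 and BU 5 together (limma-voom adjusted p = 0.996), and -0.0324 to 0.0372 with single libraries left out. Of the called pathway genes, Fzd7 and Cdh2 lost the call with library totals only, and Amer1 with upper quartile factors. Members called numbered 2 to 3 with single libraries left out and 6 by the adjusted p alone. Other pathway genes called, 16 in the comparison as reported, numbered 35 by the adjusted p alone, 3 with a fold over 2, 2 with treat, and 10 to 18 with single libraries left out, the lowest without CTRL 3. All genes called, 1949 as reported, numbered 1242 with a CPM of at least 5 required in 4 libraries (fewer genes were tested), 375 with treat, 664 with a fold over 2 and 4693 by the adjusted p alone. With BU 3 and BU 5 left out, the Axin2 to Axin1 difference was -0.35 (exact permutation p = 0.133), Lrp6 to Lrp5 -1.36 and Tcf7l2 to Tcf7l1 -0.85 (exact permutation p = 0.0667 each, the smallest that 2 against 4 libraries can give). With single libraries left out the ranges were -0.39 to -0.26, -1.44 to -1.29 and -0.99 to -0.80, and 0.39 to 0.66 for Lef1 to Tcf7l2. The cause of these shifts was not tested except where fewer samples or genes set them. No paired analysis was possible because the BU columns are numbered 2 to 5 and could not be tied to the numbered BU labels.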
